A study of Mus musculus with 15 samples.

Results

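Complement and coagulation are plasma protein cascades made largely by hepatocytes, and 36 of their genes, of 23284 in the count table, are described here across mouse liver tumours and normal liver. The genes were taken as a list of liver-made complement and coagulation proteins and matched by symbol, and all 36 were found. They comprise 16 complement genes and 20 coagulation and fibrinolysis genes. Poly-A RNA was sequenced in 15 libraries. Floxed tumours (n = 6) were hepatocellular carcinomas of Hgmb1fl/fl mice. Hmgb1-deleted tumours (n = 6) were hepatocellular carcinomas of Hgmb1Dhep mice, which carried the floxed allele with Albumin-Cre, a recombinase driven by the albumin promoter of hepatocytes. Both tumour groups had received the carcinogen DEN, at 25 mg/kg intraperitoneally on day 15 after birth, and CCl4 in corn oil, at 0.5 ul/g every week for 15 weeks from week 8. Normal livers (n = 3) came from C57Bl/6 mice whose labels name no DEN, CCl4 or floxed allele, so tumour, treatment and allele cannot be told apart in comparisons with them. The labels do not give the strain or sex of the tumour-bearing mice, the age at collection or whether each tumour came from its own animal. The spread behind each p-value is therefore that among these samples and may in part be technical.

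In the complement cascade, lectins or antibodies bound to a surface recruit proteases that cleave C4 and C3, and the terminal proteins then assemble into a membrane pore. In coagulation, proteases activate each other on membranes until thrombin turns fibrinogen into fibrin, while serpins and the protein C system restrain the cascade and plasmin dissolves the clot. Hepatocytes secrete most of these proteins into plasma, and several of them, C3 and fibrinogen among them, belong to the acute-phase response of the liver.

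Library totals ran from 18973246 to 30929442 counts. Levels are given as CPM (counts scaled to a common library size) on library totals scaled by TMM factors, with mean ± SD. Differences are log2 fold changes ± SE from edgeR's quasi-likelihood test, with p-values adjusted by Benjamini-Hochberg over all tested genes and called at 0.05. Hmgb1, the deleted gene, was at 27.8 ± 3.22 CPM in floxed tumours (n = 6), 14.8 ± 2.64 in Hmgb1-deleted tumours (n = 6) and 24.0 ± 6.18 in normal livers (n = 3). The log2 difference between deleted and floxed tumours was -0.88 (exact two-sided permutation test, p = 0.00216, adjusted over 3 comparisons 0.00649). Against normal liver it was -0.65 in deleted tumours (exact permutation p = 0.0238, adjusted 0.0357) and 0.22 in floxed tumours (exact permutation p = 0.19). The call in deleted tumours ended on library totals without a factor (-0.38, exact permutation p = 0.19) and without any 1 normal liver, where the smallest p possible is 0.0714.

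Between the tumour genotypes, 4 of the 36 genes were called and 32 were not. In Hmgb1-deleted tumours, Mbl1, a mannose-binding lectin, and C8b and C9, components of the membrane pore, were higher by 2.75-fold, 2.88-fold and 2.85-fold. F11, coagulation factor XI, was lower by 4.07-fold. These 3 higher and 1 lower calls among 36 members stood beside a background of 7.78% of 13433 tested genes called (4.45% higher and 3.33% lower), and 9 members had an unadjusted p under 0.05. The median log2 fold change of the members was -0.16, against 0.02 over all tested genes. In 2 members, Mbl1 and C9, all deleted tumours lay above all floxed tumours, and in 1, F11, all lay below. Such separation was seen in 2.85% of all tested genes upwards and 2.16% downwards.

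Against normal liver, many more members were lower in tumours. In floxed tumours 15 members fell and 1, Kng1, rose, against backgrounds of 23.8% of 13784 genes called lower, 24.9% higher and 48.7% in either direction. The members' median log2 fold change was -0.59, against 0.06 over all tested genes. In Hmgb1-deleted tumours 11 members fell and 0 rose, against backgrounds of 16.6% lower, 18.1% higher and 34.7% in either direction, with a median of -0.68 against 0.05 over all genes. In that comparison 20 members had an unadjusted p under 0.05, and 1 member, Kng1, was called higher by DESeq2 and by limma voom. Floxed tumours did not overlap the normal livers in 18 members below and 1 above (all genes 23.8% and 22.4%), and deleted tumours in 24 below and 0 above (all genes 19.4% and 18.2%). The comparisons of each tumour group with normal liver share the same 3 normal livers. Leaving out normal liver 1, 2 or 3 took the share of all genes called from 48.7% to 34.6%, 35.1% or 38% in floxed tumours. In deleted tumours it went from 34.7% to 15%, 15.8% or 22.1%. Calls of single genes lost in this way stand beside that drop. In bulk tissue, fewer cells of a type and less RNA per cell cannot be told apart.

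**Figure D1:**
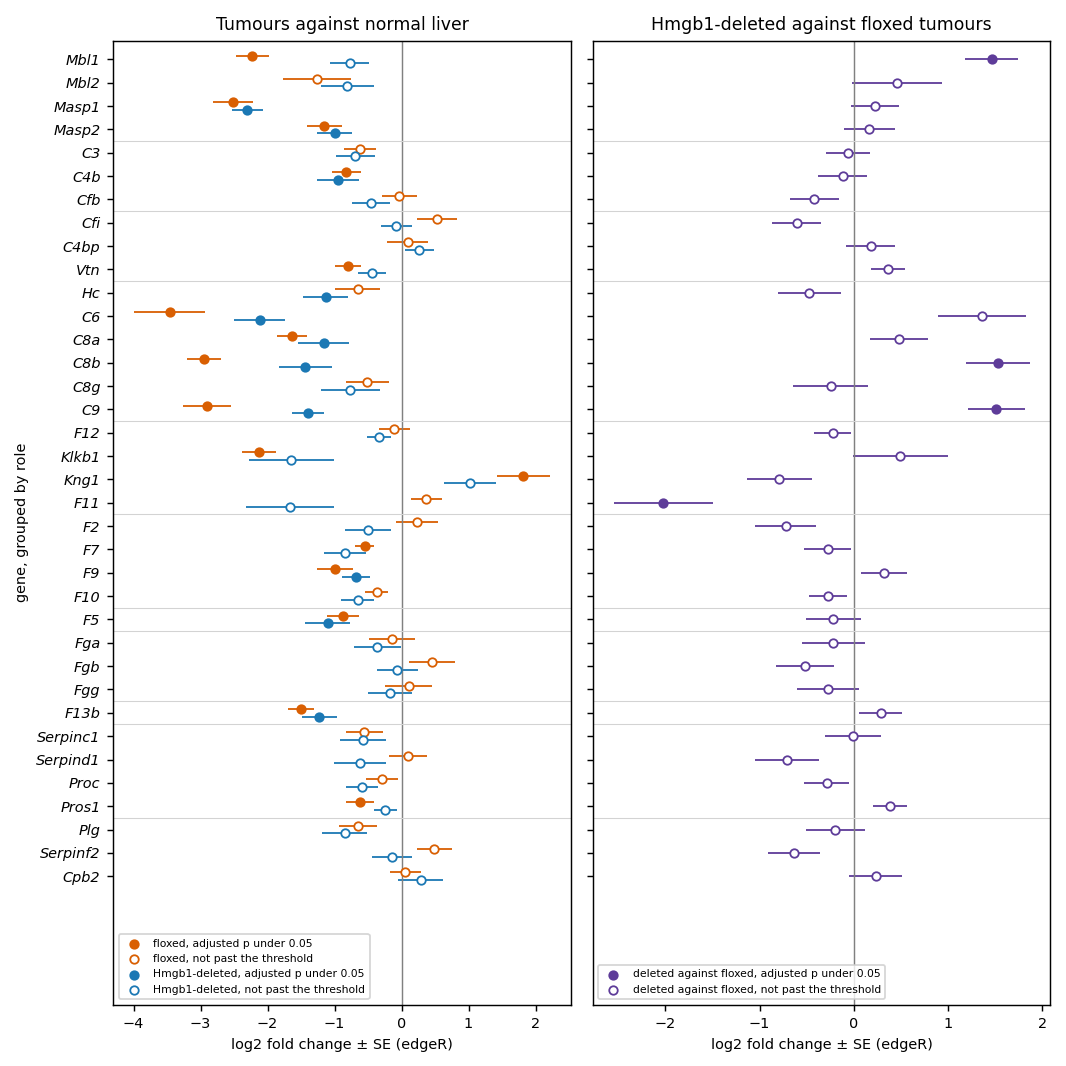
Log2 fold changes (edgeR, with SE bars) of the 36 genes in the 3 comparisons, ordered by role in the cascades; filled points are called at an adjusted p under 0.05. Between tumour genotypes, Mbl1, C8b and C9 lie to the right and F11 to the left, and against normal liver most filled points lie to the left, with Kng1 to the right in floxed tumours.

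To set genes of either direction side by side, the 250 bases before the start site are shown for the 4 genes that differed between tumour genotypes and for Fgb, a fibrinogen gene called in no comparison. Sequences are from RefSeq on GRCm38.p6, a later build than the one the counts were made on, 5′ to 3′ in the direction of transcription. Capitals mark matches on either strand to the HNF1 half-site GTTAAT, the C/EBP motif TTGCNNAA, the FOXA motif TGTTTAC and the STAT motif TTCNNNGAA, which are binding motifs of liver and acute-phase transcription factors.
Mbl1 (chr14:41151206-41151455, forward strand): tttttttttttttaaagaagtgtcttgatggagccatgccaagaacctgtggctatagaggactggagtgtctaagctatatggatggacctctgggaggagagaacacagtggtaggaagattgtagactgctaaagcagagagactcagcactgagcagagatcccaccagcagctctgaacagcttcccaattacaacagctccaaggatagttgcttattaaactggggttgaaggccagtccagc
C8b (chr4:104766067-104766316, forward strand): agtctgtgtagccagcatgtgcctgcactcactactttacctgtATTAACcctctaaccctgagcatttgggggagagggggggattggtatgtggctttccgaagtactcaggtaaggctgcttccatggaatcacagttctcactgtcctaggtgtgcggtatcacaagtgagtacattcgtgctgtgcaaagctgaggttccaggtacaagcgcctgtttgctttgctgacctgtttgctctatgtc
C9 (chr15:6445096-6445345, forward strand): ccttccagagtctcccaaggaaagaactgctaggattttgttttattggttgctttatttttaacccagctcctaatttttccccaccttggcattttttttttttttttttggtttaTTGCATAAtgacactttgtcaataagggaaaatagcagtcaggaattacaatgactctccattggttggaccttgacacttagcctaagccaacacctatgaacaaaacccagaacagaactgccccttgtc
F11 (chr8:45262032-45262281, reverse strand): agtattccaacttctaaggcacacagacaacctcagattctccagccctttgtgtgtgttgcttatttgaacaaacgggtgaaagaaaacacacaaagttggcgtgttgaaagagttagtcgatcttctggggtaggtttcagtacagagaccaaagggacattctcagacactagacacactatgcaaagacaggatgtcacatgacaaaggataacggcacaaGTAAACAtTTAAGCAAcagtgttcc
Fgb (chr3:83049864-83050113, reverse strand): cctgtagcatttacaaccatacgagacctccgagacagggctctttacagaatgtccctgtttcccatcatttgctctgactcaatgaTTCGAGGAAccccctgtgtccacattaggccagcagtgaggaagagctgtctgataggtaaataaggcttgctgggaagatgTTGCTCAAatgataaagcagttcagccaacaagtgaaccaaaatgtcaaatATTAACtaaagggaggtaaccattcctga
The Mbl1 window held no match to any of the 4 motifs. The C8b window held the HNF1 half-site, 206 to 201 bases before the start, and the C9 window a C/EBP match 132 to 125 bases before it. In F11 a FOXA match at 25 to 19 bases and a C/EBP match at 17 to 10 bases lay next to the start. The Fgb window held an HNF1 half-site at 29 to 24 bases, a C/EBP match at 80 to 73 and a STAT match at 162 to 154. RefSeq promoters were matched for 29 of the 36 genes, all but Masp1, C4b, Cfb, Cfi, Kng1, Proc and Plg. The HNF1 half-site was found in 8 of these 29 and in 6.43% of all 32851 promoters of this length, the C/EBP motif in 7 and 9.56%, the FOXA motif in 2, F11 and Klkb1, and 3.17%, and the STAT motif in 6 and 7.02%. No 2 of these motifs overlapped within the windows shown. A match is a description of the letters and not of binding.

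The lectin pathway starts with mannose-binding lectins, which recognise sugars on microbes and damaged cells, and with the MASP proteases that they carry. Mbl1 ran from 36.2 to 81.8 CPM in floxed tumours (median 53.1) and from 84.5 to 227 in Hmgb1-deleted tumours (median 162), and stood at 292, 267 and 259 in the normal livers. The 3 groups did not overlap, with the deleted tumours between floxed tumours and normal liver. Its log2 fold change was 1.46 ± 0.28 between tumour genotypes (edgeR adjusted p = 0.00997), -2.23 ± 0.25 in floxed tumours against normal liver (adjusted p = 7.9e-05) and -0.77 ± 0.29 in deleted tumours against normal liver (adjusted p = 0.0603). Without Hmgb1-deleted tumours 3, 4 and 6 the difference between genotypes was 0.95 (adjusted p = 0.0795), and without Hmgb1-deleted tumour 4 the difference of deleted tumours from normal liver reached an adjusted p of 0.0312. An earlier analysis of these data had set tumours 3, 4 and 6 apart. They held the highest Mbl1 of the group, so a smaller difference without them was built in, and fewer deleted tumours remained.

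Masp1, the protease that primes the pathway, ran from 10.7 to 28.8 CPM in floxed tumours (median 16.5) and from 16.5 to 34.0 in deleted tumours (median 21.6), against 128, 126 and 81.9 in normal livers. All 12 tumours lay below all 3 normal livers, and the tumour groups overlapped. It fell by 2.52 ± 0.29 on the log2 scale in floxed tumours (edgeR adjusted p = 9.2e-05) and by 2.30 ± 0.23 in deleted tumours (adjusted p = 0.000602). Masp2, which cleaves C4, fell by 1.15 in floxed and by 0.999 in deleted tumours against normal liver, and its call in deleted tumours was lost when any of the 3 normal livers was left out (adjusted p up to 0.0702). Mbl2, the other lectin, was not called, with log2 fold changes of -1.26 in floxed (adjusted p = 0.0612) and -0.81 in deleted tumours (adjusted p = 0.132) against normal liver. Floxed tumour 1 held 417 CPM of Mbl2, against 44.2 to 143 in the other 5 floxed tumours, and without it the fall in floxed tumours was -1.79 (adjusted p = 0.00207).

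C3, the central protein on which all complement pathways converge, ran from 5258 to 9970 CPM in floxed tumours (median 6704) and from 4763 to 9043 in deleted tumours (median 6626), against 12445, 11213 and 9118 in normal livers. The tumour groups overlapped almost completely, with a log2 fold change of -0.06 ± 0.23 (edgeR adjusted p = 0.905). Against normal liver the values were -0.62 ± 0.24 in floxed (adjusted p = 0.0534) and -0.69 ± 0.29 in deleted tumours (adjusted p = 0.0872), neither called. Without floxed tumour 5 or floxed tumour 6 the adjusted p of C3 in floxed tumours was 0.0423 or 0.0193. Cfb, the protease of the alternative pathway, ran from 945 to 2354 CPM in floxed tumours (median 1621), from 717 to 1635 in deleted tumours (median 1262) and was at 1798, 1774 and 1436 in normal livers. All 3 groups overlapped and Cfb was called in no comparison (log2 fold change -0.42 ± 0.26 between genotypes, adjusted p = 0.346). C4b, a component of the classical and lectin C3 convertase, fell by 0.82 ± 0.21 in floxed tumours (adjusted p = 0.00987) and by 0.95 ± 0.31 in deleted tumours (adjusted p = 0.041). The first call was lost without normal liver 1 (adjusted p = 0.0508), and the second without any of the 3 normal livers or without Hmgb1-deleted tumour 1, 2 or 4 (adjusted p up to 0.139). The second was also lost with upper-quartile factors and with the replicate number as a block. C4a is a near-identical copy of C4b, so reads may have been split or dropped between them.

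Among the regulators, Cfi, the protease that inactivates C3b and C4b, ran from 551 to 1776 CPM in floxed tumours (median 1254) and from 611 to 1118 in deleted tumours (median 724), against 885, 831 and 841 in normal livers. The groups overlapped, and the log2 fold change between genotypes was -0.61 ± 0.26 (edgeR adjusted p = 0.177), reaching an adjusted p of 0.0485 without floxed tumour 5. Against normal liver Cfi was at 0.53 in floxed tumours (adjusted p = 0.169, and 0.0103 without floxed tumour 5) and -0.08 in deleted tumours. C4bp, a cofactor of Cfi, was called in no comparison, with log2 fold changes of 0.18, 0.09 and 0.27. Vtn, vitronectin, which keeps the membrane pore from forming on host cells, fell by 0.80 ± 0.20 in floxed tumours (adjusted p = 0.00739) and stood at -0.44 ± 0.21 in deleted tumours (adjusted p = 0.124).

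The terminal pathway held 2 of the 3 members that were higher in Hmgb1-deleted tumours and the 3 deepest falls of floxed tumours against normal liver, those of C6, C8b and C9. C9, which polymerises to form the wall of the pore, ran from 40.5 to 162 CPM in floxed tumours (median 120) and from 205 to 406 in deleted tumours (median 290), against 866, 916 and 638 in normal livers. The 3 groups did not overlap, and the lowest deleted tumour stood above the highest floxed tumour. Its log2 fold change was 1.51 ± 0.31 between genotypes (edgeR adjusted p = 0.0123), -2.91 ± 0.36 in floxed tumours against normal liver (adjusted p = 0.000133) and -1.40 ± 0.24 in deleted tumours (adjusted p = 0.0035). The difference between genotypes stayed called in all 23 alternatives run, with adjusted p up to 0.0489. On library totals without a factor, C9 was 1 of 4 members, with C4bp, Vtn and Pros1, in which Hmgb1-deleted tumours 2 and 5 were both above the other 4.

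C8b, which docks C8 to the growing complex, ran from 52.6 to 110 CPM in floxed tumours (median 67.2) and from 101 to 311 in deleted tumours (median 225), against 583, 669 and 505 in normal livers. Hmgb1-deleted tumours 3, 4 and 6 held 304, 309 and 311 CPM and tumours 1, 2 and 5 held 112, 147 and 101, the last inside the floxed range. The log2 fold change between genotypes was 1.53 ± 0.34 (edgeR adjusted p = 0.0181), and without tumours 3, 4 and 6 it was 0.64 (adjusted p = 0.175). Those tumours held the highest C8b of the group, so a smaller difference without them was built in, and fewer deleted tumours remained. Against normal liver C8b fell by 2.95 ± 0.25 in floxed tumours (adjusted p = 1.5e-05) and by 1.44 ± 0.39 in deleted tumours (adjusted p = 0.0206, and up to 0.0819 without normal liver 1 or 2). C8a, encoded beside C8b, fell by 1.63 in floxed tumours and by 1.16 in deleted tumours (adjusted p = 0.000221 and 0.0404), and differed by 0.48 between genotypes (adjusted p = 0.362, and 0.047 without Hmgb1-deleted tumours 2 and 5). Tumours 2 and 5 held the lowest C8a of the group, so a larger difference without them was built in. The call of C8a in deleted tumours was lost without any normal liver or without Hmgb1-deleted tumour 1 or 2 (adjusted p up to 0.129). Upper-quartile factors and the replicate number as a block also ended it. C8g, the third chain of C8 and unrelated in sequence to the other chains, was called in no comparison, with log2 fold changes of -0.25 between genotypes, -0.51 in floxed and -0.76 in deleted tumours against normal liver.

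C6, which follows C5b in the complex, ran from 7.36 to 80.3 CPM in floxed tumours (median 35.1) and from 46.1 to 168 in deleted tumours (median 99.1), against 434, 548 and 308 in normal livers. Every tumour lay below every normal liver, while the tumour groups overlapped. Against normal liver it fell by 3.46 ± 0.53 in floxed tumours, to 0.0908 of the normal level (edgeR adjusted p = 0.000549), and by 2.12 ± 0.38 in deleted tumours (adjusted p = 0.00444). The difference between genotypes, 1.36 ± 0.47, was not called (adjusted p = 0.094), and passed with DESeq2 (adjusted p = 0.0309), with limma voom (adjusted p = 0.0494) and without floxed tumour 4 (adjusted p = 0.0462). Hc, which encodes C5, was at -0.65 ± 0.34 in floxed tumours (adjusted p = 0.13, and 0.019 without floxed tumour 6) and fell by 1.13 ± 0.33 in deleted tumours (adjusted p = 0.0278). That call was lost when any single normal liver, or Hmgb1-deleted tumour 1, was left out (adjusted p up to 0.108).

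**Figure D2:**
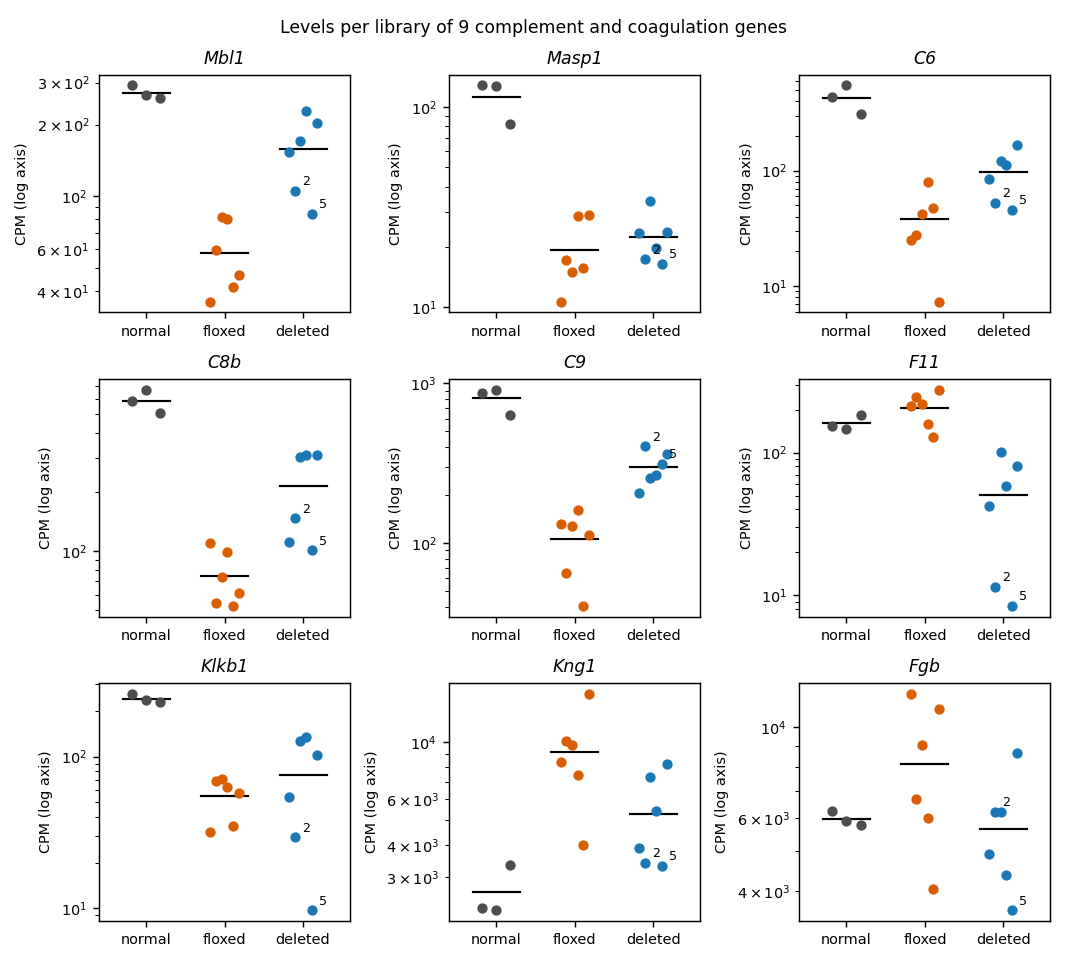
CPM on a log axis of 9 of the genes, 1 point per library, for normal livers, floxed tumours and Hmgb1-deleted tumours, with lines at the group means and Hmgb1-deleted tumours 2 and 5 numbered. C9 and Mbl1 show 3 separate ranges with deleted tumours in the middle, F11 shows deleted tumours below both other groups, and Fgb overlaps in all groups.

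In the contact and intrinsic pathway, F11 and Kng1 changed in different comparisons. F11, the protease activated by factor XII and thrombin, ran from 129 to 277 CPM in floxed tumours (median 215) and stood at 154, 147 and 184 in normal livers. The 6 Hmgb1-deleted tumours held 42.4, 11.4, 101, 58.6, 8.45 and 80.5 CPM, all below every floxed tumour and every normal liver. The log2 fold change between genotypes was -2.02 ± 0.53 (edgeR adjusted p = 0.0343). It stayed called without Hmgb1-deleted tumours 2 and 5, the lowest (-1.56, adjusted p = 0.00946), and without tumours 3, 4 and 6 (-3.35, adjusted p = 0.0113). Tumours 3, 4 and 6 held the highest F11 of the group, so a deeper difference without them was built in. The call did not survive leaving out any one of 6 libraries (floxed tumours 1, 2, 3 and 6, deleted tumours 1 and 4), with log2 fold changes from -2.10 to -1.92 and adjusted p up to 0.0647. Against normal liver F11 was at 0.37 ± 0.23 in floxed tumours (adjusted p = 0.212) and at -1.67 ± 0.65 in deleted tumours (adjusted p = 0.0721, 0.0422 without Hmgb1-deleted tumour 3, and 0.0153 without tumours 2 and 5).

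Klkb1, which encodes plasma prekallikrein and lies beside F11 in the genome, had another pattern. It ran from 31.7 to 71.6 CPM in floxed tumours, below the 228 to 259 of normal livers, and fell there by 2.12 ± 0.25 (edgeR adjusted p = 0.000102). In deleted tumours it ran from 9.77 in tumour 5 to 135 in tumour 4, with a log2 fold change of 0.49 ± 0.50 between genotypes (adjusted p = 0.594). Against normal liver it was at -1.64 ± 0.63 in deleted tumours (adjusted p = 0.0675), and at -1.41 with an adjusted p of 0.0351 without tumour 5.

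Kng1, kininogen, the precursor of bradykinin and carrier of prekallikrein and factor XI, ran from 4009 to 15372 CPM in floxed tumours (median 9049) and from 3324 to 8225 in deleted tumours (median 4656), against 2279, 2243 and 3341 in normal livers. All floxed tumours lay above the normal livers, and deleted tumours overlapped both. It rose by 1.82 ± 0.40 in floxed tumours (edgeR adjusted p = 0.00379), and stood at 1.02 ± 0.39 in deleted tumours (adjusted p = 0.0637, and 0.0452 without Hmgb1-deleted tumour 5) and at -0.79 ± 0.35 between genotypes (adjusted p = 0.182). Kng2 is a near copy, so the 2 kininogen counts are uncertain. F12, factor XII, which starts the contact pathway, was called in no comparison, with log2 fold changes of -0.22, -0.11 and -0.34.

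Among the vitamin K-dependent factors, F2, prothrombin, ran from 1453 to 4238 CPM in floxed tumours (median 2477) and from 760 to 2312 in deleted tumours (median 1518), against 2128, 2115 and 2226 in normal livers. All 3 groups overlapped, and the log2 fold change between genotypes was -0.72 ± 0.32 (edgeR adjusted p = 0.19). F9, factor IX, fell by 0.99 ± 0.26 in floxed tumours (adjusted p = 0.0105) and by 0.68 ± 0.21 in deleted tumours (adjusted p = 0.033). The latter call was lost without any normal liver or without Hmgb1-deleted tumour 1 or 2 (adjusted p up to 0.119). It was also lost with upper-quartile factors, with all 15 libraries in 1 fit and with the replicate number as a block. F7, which starts coagulation with tissue factor, fell by 0.55 ± 0.14 in floxed tumours (adjusted p = 0.00945, but 0.0952 with all 15 libraries in 1 fit), and was at -0.84 ± 0.31 in deleted tumours (adjusted p = 0.0622, and 0.0316 and 0.0497 without Hmgb1-deleted tumour 3 and 4). F10, the neighbour of F7 and the protease that activates prothrombin, was called in no comparison and stood at -0.66 ± 0.25 in deleted tumours against normal liver (adjusted p = 0.0623, and 0.0417 without Hmgb1-deleted tumour 3).

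F5, the cofactor of factor Xa, ran from 277 to 572 CPM in floxed tumours (median 439) and from 179 to 524 in deleted tumours (median 354), against 860, 783 and 692 in normal livers. Every tumour lay below every normal liver. It fell by 0.88 ± 0.24 in floxed tumours (edgeR adjusted p = 0.0134, and 0.0592 without normal liver 1) and by 1.10 ± 0.34 in deleted tumours (adjusted p = 0.0316). The call in deleted tumours was lost without any normal liver, without Hmgb1-deleted tumour 1 or 2, or with the replicate number as a block (adjusted p up to 0.113). F13b, the carrier subunit of the enzyme that crosslinks fibrin, ran from 62.9 to 119 CPM in floxed tumours (median 106) and from 70.3 to 179 in deleted tumours (median 113), against 294, 273 and 284 in normal livers. The tumour groups overlapped below the normal livers, and levels fell to 0.353 of normal in floxed tumours (edgeR adjusted p = 0.000147) and by 1.23 ± 0.26 on the log2 scale in deleted tumours (adjusted p = 0.00788).

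The 3 fibrinogen chains, which share a gene cluster and are secreted as 1 protein, were called in none of the 3 comparisons. Fga ran from 2589 to 8706 CPM in floxed tumours (median 6180) and from 3422 to 8873 in deleted tumours (median 4856), against 7461, 7147 and 6007 in normal livers. Fgb ran from 4049 to 12056 CPM (median 7862) and from 3592 to 8635 (median 5567), against 6266, 5920 and 5779. Fgg ran from 2468 to 8990 CPM (median 5642) and from 2811 to 7421 (median 4228), against 5459, 5164 and 4929. The tumours of both groups spread on both sides of the normal livers for all 3 chains. The log2 fold changes between genotypes were -0.22 ± 0.33, -0.52 ± 0.31 and -0.28 ± 0.33 for Fga, Fgb and Fgg (edgeR adjusted p = 0.741, 0.329 and 0.658). Against normal liver they were -0.14, 0.46 and 0.11 in floxed tumours and -0.36, -0.06 and -0.17 in deleted tumours.

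Among the anticoagulants, Pros1, protein S, the cofactor of activated protein C, ran from 37.2 to 81.7 CPM in floxed tumours (median 54.9) and from 56.2 to 93.2 in deleted tumours (median 71.4), against 87.5, 87.5 and 88.4 in normal livers. Floxed tumours lay below the normal livers, and deleted tumours 2 and 5 lay at 93.2 and 87.9, within or above the normal range. It fell by 0.62 ± 0.20 in floxed tumours (edgeR adjusted p = 0.027), a call lost when any normal liver was left out (adjusted p 0.057 to 0.0723) and on library totals without a factor (adjusted p = 0.182). Between genotypes it was at 0.39 ± 0.18 (adjusted p = 0.207). Serpinc1 (antithrombin), Serpind1 (heparin cofactor II) and Proc (protein C) were called in no comparison. Serpind1 was at -0.71 ± 0.34 between genotypes (adjusted p = 0.222), and Proc was at -0.59 ± 0.25 in deleted tumours against normal liver (adjusted p = 0.0854, and 0.0434 without Hmgb1-deleted tumour 4).

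In fibrinolysis, Serpinf2, alpha-2-antiplasmin, ran from 901 to 2112 CPM in floxed tumours (median 1722) and from 754 to 1715 in deleted tumours (median 946), against 1230, 1133 and 1239 in normal livers. The groups overlapped, with a log2 fold change of -0.63 ± 0.27 between genotypes (edgeR adjusted p = 0.176) and 0.49 in floxed tumours against normal liver (adjusted p = 0.149, and 0.0137 without floxed tumour 5). Plg, plasminogen, was below every normal liver in all 12 tumours but was not called, at -0.65 ± 0.29 in floxed (adjusted p = 0.0831) and -0.85 ± 0.34 in deleted tumours (adjusted p = 0.0755). Its adjusted p was 0.0481 or 0.0473 without floxed tumour 5 or 6, and 0.0386 without Hmgb1-deleted tumour 6. Cpb2, the carboxypeptidase that protects fibrin from plasmin, was called in no comparison (0.23, 0.06 and 0.28).

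Genes of the same pathways outside the list were counted separately. Of other complement genes, 2 of 33 tested were higher and 0 lower in Hmgb1-deleted than in floxed tumours (edgeR, 3 with an unadjusted p under 0.05, and 0 lower by DESeq2), 9 higher and 9 lower of 34 in floxed tumours against normal liver, and 8 higher and 5 lower of 35 in deleted tumours against normal liver. Over all tested genes the shares called higher and lower were 4.45% and 3.33%, 24.9% and 23.8%, and 18.1% and 16.6% in these 3 comparisons, so the counts of other complement genes in floxed tumours lay near the background. Among those called between genotypes was Cd59a, which blocks C9 assembly on host cells, at 0.63 ± 0.17 (edgeR adjusted p = 0.0401). Its call was lost without any of 4 floxed (1, 2, 4 and 5) and 4 deleted tumours (3, 4, 5 and 6), with adjusted p up to 0.1 among these. Against normal liver C1qa and C1qb, chains of C1q made by macrophages, rose by 1.06 and 1.38 in floxed and by 1.26 and 1.32 in deleted tumours, and the complement receptor chain Itgax rose by 3.51 and 3.57. Itgam rose by 1.71 in floxed tumours and Itgb2 by 1.21 in deleted tumours. Colec10 (a collectin), Cpn2 (carboxypeptidase N) and C1ra fell by 1.93, 1.13 and 0.86 in floxed tumours. In deleted tumours they fell by 1.52, 1.21 and 0.69, of which C1ra was lost when any single normal liver was left out (adjusted p up to 0.0962).

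Of other coagulation and fibrinolysis genes, 0 of 30 tested were higher and 1 lower between genotypes (5 with an unadjusted p under 0.05, and 0 higher by DESeq2), 11 higher and 6 lower of 30 in floxed tumours, and 10 higher and 5 lower of 31 in deleted tumours against normal liver. Beside the all-gene shares of 4.45% and 3.33%, 24.9% and 23.8%, and 18.1% and 16.6%, the counts of lower genes lay near or below the background in all 3 comparisons. The 1 lower between genotypes was Fgl2, a membrane prothrombinase, at 44.8 ± 7.03 CPM in floxed tumours, 16.7 ± 10.6 in deleted tumours and 4.52 ± 0.19 in normal livers. Its log2 fold change was -1.41 ± 0.34 between genotypes (edgeR adjusted p = 0.0241, and 0.0553 without Hmgb1-deleted tumour 4), and it rose by 3.32 ± 0.17 in floxed tumours (adjusted p = 1.1e-06). F2rl1, the protease-activated receptor PAR2, rose by 4.88 in floxed and by 4.64 in deleted tumours. Kng2 and Plaur, the urokinase receptor, rose by 1.46 and 3.82 in floxed tumours, and Procr (the protein C receptor) and Plat (tissue plasminogen activator) by 1.65 and 3.22 in deleted tumours. Adamts13, Tfpi2, Proz and Habp2 fell by 1.39, 1.21, 0.88 and 0.66 in floxed tumours and by 1.42, 0.81, 1.07 and 1.08 in deleted tumours. Habp2 was lost without normal liver 1 or 2 in floxed tumours (adjusted p up to 0.0728). In deleted tumours it was lost when any single normal liver was left out (adjusted p up to 0.0876). Tfpi2 was lost without normal liver 1 or 2 (adjusted p up to 0.0614) and Adamts13 without normal liver 2 (adjusted p up to 0.0699) in deleted tumours.

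Levels varied far more among tumours than among normal livers. The median coefficient of variation over the 36 genes was 31.4% in floxed tumours, 36.1% in deleted tumours and 9.11% in normal livers. The highest library held up to 10.9 times the lowest in floxed tumours (C6), up to 13.8 times in deleted tumours (Klkb1) and up to 1.78 times in normal livers. The median of this ratio over the 36 genes was 2.40, 2.57 and 1.18. Such a ratio tends to grow with the number of libraries, 6 in each tumour group and 3 in normal livers. Floxed tumour 5 was the lowest of its group in 25 of 36 genes and floxed tumour 6 the highest in 15. Hmgb1-deleted tumour 5 was the lowest in 26 and tumour 6 the highest in 20. Hmgb1-deleted tumours 2 and 5 both lay below the other 4 in 24 genes and above them in 1, Pros1. No share over all genes was counted for ranks or separations of this kind, so they describe the members only. An earlier analysis of these data had set tumours 2 and 5 apart. These 2 libraries and floxed tumour 5 had the largest TMM factors, 1.34, 1.33 and 1.27, against 0.808 to 1.14 in the other 12, and on library totals without a factor tumours 2 and 5 were both below the other 4 in 13 genes and above in 4. The part of this scaling in the levels was not tested. The same libraries held high levels of the fibroblast collagen Col1a1, at 425 CPM in floxed tumour 5 against 19.5 to 45.1 in the other 5 floxed tumours. It was at 105 and 74.5 in Hmgb1-deleted tumours 2 and 5, with 68.9 in tumour 1 and 13.4 to 20.1 in tumours 3, 4 and 6. The other stellate cell and fibroblast markers were split. Col3a1, Acta2 and Pdgfrb were also higher in deleted tumours 2 and 5 than in 3, 4 and 6, and Des lay within their range. Dcn, Lrat and Reln were lowest of the group in tumours 2 and 5, at 99.5 and 69.3, 3.51 and 3.67, and 16.4 and 10.2 CPM. Without floxed tumour 5, 17 members were lower and 3 higher in floxed tumours than in normal liver. Over all genes 3345 were then lower and 3526 higher, against 3277 and 3437 with all floxed tumours kept. Without Hmgb1-deleted tumours 2 and 5 the calls of Mbl1, C8b, C9 and F11 between genotypes were kept. The median log2 difference from the mean of the normal livers ran from -1.21 in floxed tumour 5 to -0.33 in floxed tumour 6, and from -1.48 in Hmgb1-deleted tumour 5 to -0.31 in tumour 6.

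**Figure D3:**
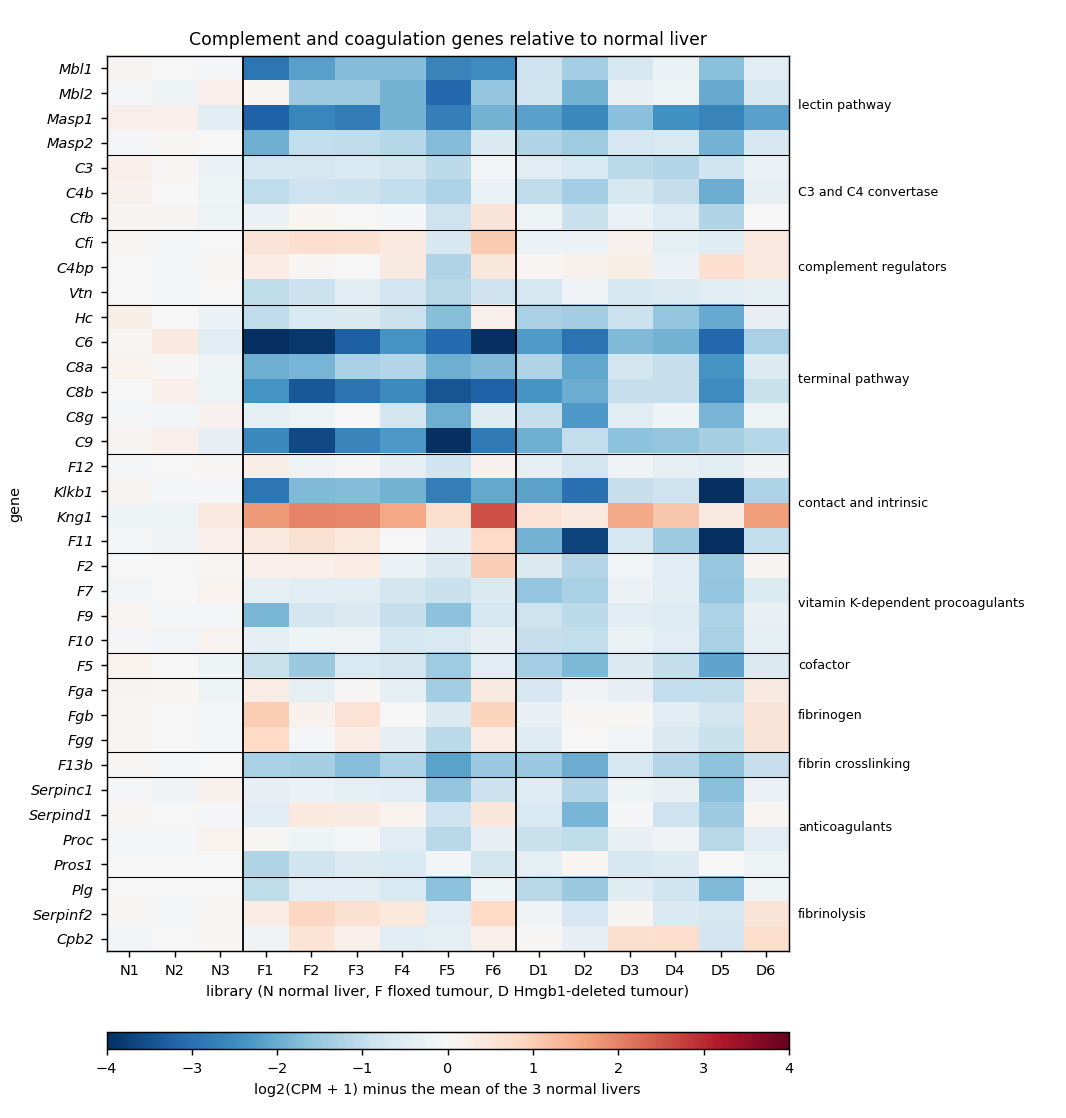
Log2 difference of each of the 36 genes (rows, by role) in each library (columns) from the mean of the 3 normal livers, with colours saturating at 4 in either direction. Mbl1, Masp1, C6, C8b, C9 and Klkb1 are low across floxed tumours, Kng1 is high, and Hmgb1-deleted tumours 2 and 5 are low in most rows of these TMM-scaled levels.

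As a share of all counts, the 36 genes together held 5.24% ± 0.98 in floxed tumours (SD, n = 6), 4.85% ± 0.83 in deleted tumours (n = 6) and 5.34% ± 0.41 in normal livers (n = 3), and the ranges overlapped. These shares carry no TMM factor. Hmgb1-deleted tumours 2 and 5, low in most genes on scaled levels, held 5.58% and 4.13%. In tumour 2 the complement genes held 1.94% and the fibrinogen genes 2.36%, the highest shares of the deleted group. The 16 complement genes held 1.27% to 1.66%, 1.30% to 1.94% and 1.87% to 2.44%, so all floxed tumours lay below the normal livers. The 20 coagulation genes held 2.52% to 4.97%, 2.45% to 4.28% and 3.02% to 3.25%, with tumours on both sides of the normal livers. Kng1 alone made up 0.207% to 0.291% in normal livers, 0.509% to 1.24% in floxed and 0.441% to 0.76% in deleted tumours. The share of albumin was 7.66% to 9.37% in normal livers, 11.2% to 19.6% in floxed and 7.69% to 13% in deleted tumours. Leaving it out of the totals gave mean member shares of 6.26% in floxed tumours, 5.44% in deleted tumours and 5.84% in normal livers.

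**Figure D4:**
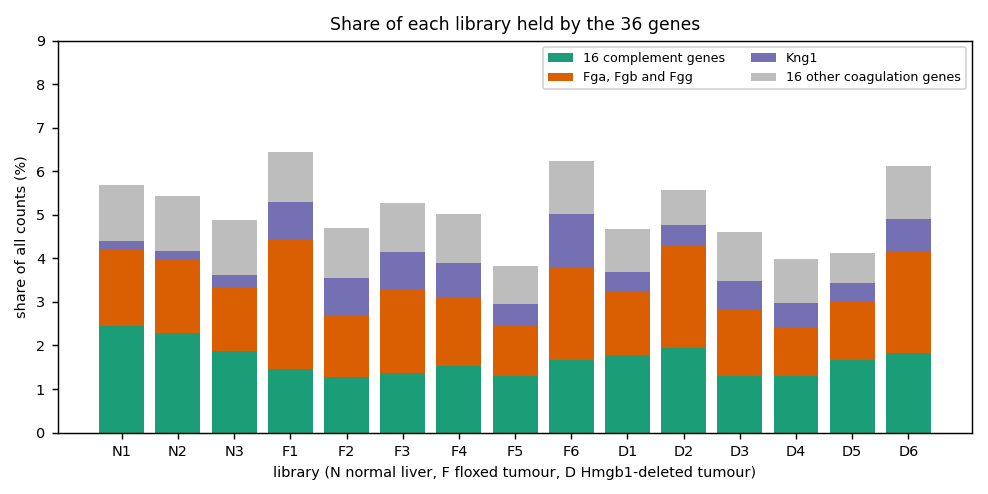
Share of all counts, in percent, in each of the 15 libraries, stacked as 16 complement genes, the 3 fibrinogen genes, Kng1 and the 16 other coagulation genes. The complement part is 1.27% to 1.66% in floxed tumours and 1.87% to 2.44% in normal livers, and the Kng1 part is wider in every tumour than in any normal liver.

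Counts of called markers stand beside all-gene shares of 4.45% higher and 3.33% lower between genotypes. Against normal liver these shares were 24.9% and 23.8% in floxed tumours and 18.1% and 16.6% in deleted tumours. Hepatocyte markers were present in every library, and the list of 10 had 0 members called between tumour genotypes (3 with an unadjusted p under 0.05), 2 higher and 3 lower in floxed tumours and 0 higher and 2 lower in deleted tumours against normal liver. Their summed level ran from 110523 to 290486 CPM in floxed tumours, 75040 to 176423 in deleted tumours and 115213 to 142965 in normal livers. Alb made up most of each sum, with 242902 of 290486 CPM in floxed tumour 6. Single markers differed in direction. Cps1 ran from 230 to 1005 CPM in tumours and from 3387 to 4095 in normal livers, and Apoa1 from 6691 to 37030 and from 6712 to 9797. Of 8 macrophage markers 2, Cd68 and Lyz2, were higher in each tumour group, with sums of 217 to 642, 338 to 516 and 255 to 340 CPM, and 0 were called between genotypes. Of 8 endothelial markers 2 were higher in floxed and 1 in deleted tumours, with 1, Stab1, lower in deleted than in floxed tumours. Their sums were 282 to 558, 191 to 362 and 205 to 333 CPM. Of 8 stellate cell and fibroblast markers 1 was higher in each tumour group and 1 lower in deleted tumours, with sums of 242 to 1399, 251 to 502 and 262 to 360 CPM, the highest in floxed tumour 5. Of 6 cholangiocyte markers 3 were higher in floxed and 1 in deleted tumours, with sums of 58.9 to 1757, 199 to 6279 and 67.8 to 79.5 CPM. Spp1 made up most of the highest sums, with 6187 of 6279 CPM in Hmgb1-deleted tumour 2. In that library Krt19 and Krt7 were at 1.56 and 2.21 CPM against 1.44 to 1.93 and 0.405 to 0.842 in normal livers. Sox9, Epcam and Cftr were at 54.3, 24.3 and 9.46 CPM there, against 4.92 to 9.11, 1.68 to 2.01 and 0.0809 to 0.198 in normal livers. Lymphocyte, neutrophil and platelet markers summed to at most 31.05, 25.9 and 13.8 CPM in any library. Of 5 erythroid markers 3, Hba-a1, Hbb-b1 and Hbb-b2, were at 0 in all 15. Whether reads of these 3 genes were lost in counting was not tested, so a count of 0 need not mean absent RNA. Of 8 lymphocyte markers 1 was higher in floxed and 3 in deleted tumours against normal liver, of neutrophil markers all 3 tested in floxed and 1 of 2 tested in deleted tumours, and of 4 tested platelet markers 1 in each, and 0 of these lists were called between genotypes. The 1 erythroid marker tested, Alas2, was lower in both tumour groups, at 141 to 157 CPM in normal livers and 7.4 to 47 in tumours. Of 14 liver transcription factors 2, Onecut1 and Nr1h4, were higher in deleted than in floxed tumours, and against normal liver 2 were higher and 8 lower in floxed tumours and 2 higher and 5 lower in deleted tumours. The call of Onecut1 between genotypes was lost with all 15 libraries in 1 fit (edgeR adjusted p = 0.0755). Its normal livers held 3.00, 108 and 12.2 CPM. That of Nr1h4 was lost without Hmgb1-deleted tumour 4 and without tumours 3, 4 and 6 (edgeR adjusted p up to 0.0647). The counts of macrophage and endothelial markers higher in floxed tumours lay near the all-gene share. The part of any of these lists in the levels of the complement and coagulation genes was not tested.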

How the data were processed

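Libraries were made with an Illumina TruSeq kit from poly-A RNA of 12 tumours and 3 normal livers, per the labels' protocols. The deposited file gives the authors' raw read counts per gene symbol, not normalized, for 23284 genes. The submitters' processing notes name mm9, HTSeq 0.6.1, Bowtie2 2.2.4, TopHat2 2.1.0 and bcl2fastq 1.8.4. How reads were assigned by strand, the settings and the annotation were not given in the sources used here, so reads of Masp1, Masp2, C8g, F5, Serpinc1, Serpind1 and Plg may include those of genes overlapping them on the opposite strand (Rtp4, Tardbp, Fbxw5, Gm16548, Zbtb37, Pi4ka and Slc22a3), and reads of near copies are uncertain.

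Groups came from the labels, all value columns were used, and no 2 libraries of a group agreed within sampling noise (lowest chi-square per degree of freedom 26.3). In R 4.3.3, genes were filtered by filterByExpr on the 2 groups compared, scaled by TMM and fitted with edgeR 4.0.16 (robust quasi-likelihood F test, Benjamini-Hochberg over all tested genes, threshold 0.05). All 36 members passed the filter in each comparison. CPM used TMM factors over all 15 libraries. Hmgb1 was tested by exact permutation of log2(CPM + 1). The scripts were tested on simulated data.

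The members and lists were chosen with earlier results of these data known. Members given in full are, per comparison, up to 4 called with the largest rise and 4 with the largest fall, per role the member with the smallest p between tumour genotypes, and Fga, Fgb, Fgg and C3; of the other pathway genes, up to 4 called per direction and comparison with the smallest p, some of which are not reported here. Onecut1, Nr1h4, Cd68, Lyz2, Stab1, Col1a1, Spp1, Krt19, Krt7 and Alas2 were named after their values were seen. So were Sox9, Epcam, Cftr, Col3a1, Acta2, Pdgfrb, Des, Dcn, Lrat, Reln, Cps1 and Apoa1. Of 150 list entries 148 matched, 3 by another symbol. Alternatives were RLE and upper-quartile factors, library totals, other filters, DESeq2 1.42.0, limma 3.58.1 voom with sample weights, all groups in 1 fit, the replicate number as a block, each library left out, and Hmgb1-deleted tumours 3, 4 and 6 or 2 and 5 left out together, since an earlier analysis of these data set them apart.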

Additional observations from a re-analysis of the deposited data

Results flagged for a closer look

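Each of the 36 genes was checked for a library standing apart within each group of 6 tumours, by the gap to its nearest neighbour over the whole range of the group. Of 72 such groups 2 were singled out, where chance singles out about 1 in 20. Mbl2, the lectin-pathway recognition protein, was at 417.22 CPM in floxed tumour 1, against 142.75 in the next highest and 44.2 in the lowest floxed tumour, a gap of 0.736 of the range. C4b was at 972.48 CPM in floxed tumour 6, against 670.91 in the next and 506.2 in the lowest, a gap of 0.647 of the range.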

How the results depend on the processing

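No member reversed its direction past the threshold in any alternative. Of 828, 648 and 720 alternative values of single members, in deleted against floxed tumours, floxed tumours against normal liver and deleted tumours against normal liver, 8, 9 and 38 lost the call and 6, 26 and 56 gained one. Between genotypes, members higher and lower numbered 3 and 1, 1 and 2 without Hmgb1-deleted tumours 3, 4 and 6, and 3 to 4 and 0 to 2 when single libraries were left out. Of all genes 7.78% were called in the main fit and 5.8% without tumours 3, 4 and 6. With single libraries left out the share was 4.34% to 7.8%. Other complement genes higher (2) numbered 1 with no filter, 1 with the replicate block, 0 without tumours 3, 4 and 6, and 0 to 2 with single libraries left out. Other coagulation genes higher (0) numbered 1 on library totals without a factor, with no filter, with all 15 libraries in 1 fit and without tumours 3, 4 and 6, and 0 to 1 with single libraries left out. Those lower (1) numbered 4 with DESeq2, 3 in 1 fit, 2 without tumours 3, 4 and 6, 0 without tumours 2 and 5, and 0 to 2 with single libraries left out.

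In floxed tumours against normal liver, members higher (1) numbered 2 on library totals, 4 with voom, 3 with the replicate block and 1 to 3 with single libraries left out, members lower (15) 12 to 18, and other coagulation genes lower (6) 3 with upper-quartile factors and 3 to 7 with single libraries left out. The share of all genes called there was 48.7% in the main fit, 39.8% on library totals, 63.5% with voom and 49.6% with the block. With single libraries left out it was 34.6% to 50.9%. In deleted tumours against normal liver, members higher (0) numbered 1 with upper-quartile factors, library totals, DESeq2, voom and without tumours 2 and 5, and 0 to 1 with single libraries left out. Members lower (11) numbered 20 with DESeq2, 21 with voom, 24 without tumours 3, 4 and 6, and 4 to 14 with single libraries left out. The share of all genes called in either direction moved as well. It was 34.7% in the main fit, 42.4% with DESeq2, 48.7% with voom and 47.7% without tumours 3, 4 and 6. With single libraries left out it was 15% to 35.9%. Other complement genes lower (5) numbered 3 with upper-quartile factors, 8 with DESeq2, 9 with voom, 12 without tumours 3, 4 and 6, and 3 to 6 with single libraries left out. Other coagulation genes lower (5) numbered 2 with the replicate block, 8 without tumours 3, 4 and 6 and 1 to 6 with single libraries left out, and those higher (10) 5 to 12. The causes were not tested.

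Hmgb1 in deleted tumours against normal liver was at -0.38 on library totals without a factor (exact permutation p = 0.19) and at -0.80 to -0.46 with single libraries left out; without a normal liver the smallest p possible is 0.0714. Library totals moved the median of all genes by 0.181 between genotypes and by 0.282 in deleted tumours against normal liver, where calls over all genes were 982 higher and 257 lower against 598 and 447, and 2969 and 1062 against 2492 and 2295. Upper-quartile factors moved it by 0.175 and 0.154 in floxed and deleted tumours against normal liver, with 4363 higher and 2509 lower against 3437 and 3277, and 3390 and 1578. DESeq2 called 979 and 975 genes between genotypes.

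Replicate numbers were not shown to pair the samples: the correlations of same-numbered deleted and floxed tumours were 0.0848, -0.261, 0.167, 0.0685, 0.225 and 0.113, and not every sample correlated best with its own number. These correlations had no reference to be set against, so they cannot exclude pairing. With the replicate block, 462 genes were higher and 398 lower between genotypes, and 22.9% of all genes were called in deleted tumours against normal liver. Against normal liver the block fit kept only tumours 1, 2 and 3 of a group, whose numbers the normal livers share. Blocking and a smaller set of samples cannot be told apart there. Between genotypes the block kept the calls of Mbl1, C8b, C9 and F11 (adjusted p from 0.0114 to 0.0379). Against normal liver it ended those of F7 in floxed tumours and of C4b, C8a, F9, F5, Proz and Adamts13 in deleted tumours. Upper-quartile factors ended those of Pros1 and Habp2 in floxed tumours and of C4b, C8a, F9 and C1ra in deleted tumours. Fitting all 15 libraries together ended those of F7 and Habp2 in floxed tumours and of F9 in deleted tumours.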
